A study of Gallus gallus with 27 samples.

Results

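Of the 14161 gene rows measured in 27 chicken libraries, 66 had 100 or more normalized reads in each of 6 libraries of primary embryonic fibroblasts and under 2 in each of 18 libraries of immortal fibroblasts. These genes, present in the primary cultures and at or near 0 in every immortal line, were described by function and by their level in FAT, the only group that took no part in choosing them. A normalized read is a sequenced read divided by a factor set for each library, with no correction for gene length, so levels were compared between groups and not between genes. Both thresholds together were met by 77 rows, of which 11 were left out by symbol (COL4A1, COL8A2, COL10A1, COL15A1, ACAN, ACTC1, CDH3, FBLN1, FST, LPL and NECTIN1).

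The immortal groups included CF2 and CF4, attached fibroblasts that had immortalized spontaneously, and SCF2 and SCF4, anchorage-independent lines grown in suspension. CF2, CF4, SCF2 and SCF4 had each passed at least 120 population doublings. The other immortal groups were DF1, an established attached chicken line, and SDF1, its anchorage-independent form. FAT was labelled only as fat of the Israeli Baladi breed, and the sources used here do not say whether that means a tissue or cultured cells turned into fat. CEF4 and CEF2 were the primary cultures of embryonic fibroblasts. Each of the 9 groups had 3 libraries, described in the series design as biological replicates, and each number stands for 1 line or culture. CF4 and CEF4 carried the Israeli Baladi label, CF2 and CEF2 the Broiler Ross 308 label, and DF1 and SDF1 the East Lansing Line 0 label. SCF2 and SCF4 carried opposite breeds in a pair of label fields, so their breed was not used. A medium with oleic acid, meant to turn fibroblasts into fat-like cells, is described for the set that held CF, FAT, DF1 and SDF1, without naming the samples it was used on.

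Primary fibroblasts divide for a limited time in culture, pass through a crisis and stop, and rare cells that keep dividing can found an immortal line. Embryonic fibroblasts build extracellular matrix, secrete signals and signal antagonists, and keep transcription factors that record where in the embryo they arose. Primary isolates are also mixtures, in which cells committed to cartilage, muscle or fat can grow beside the fibroblasts. In bulk RNA, fewer cells that express a gene and less RNA of that gene per cell cannot be told apart.

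Recovered reads per library were 4.61 to 10.4 M (mega) in FAT, fewer than the 12.3 to 28.7 M of the cultures. The upper threshold of 2 normalized reads corresponded to 2.76 to 6.80 reads in the immortal libraries. In FAT, 1 read was worth 1.52 to 3.16 normalized reads, so a count of 0 there allowed a level of up to 4.56 to 9.49. The third DF1 library stood apart, correlating at 0.954 to 0.956 with the other DF1 libraries and at 0.966 with the CF2 libraries (Pearson, log2 scale, across genes), and without it 74 genes met the rule, among them all 66. The fibroblast markers were kept in the immortal lines at a lower sum, 66412 to 179846 normalized reads for 14 genes against 668607 to 1287890 in the primary cultures. TCF21 was at 0 in all immortal lines, but CEF2 and CEF4 each had 1 gene of the list at 0 as well. In every cultured library the leukocyte list summed to at most 256 and the red blood cell list to at most 13.3. In FAT the adipocyte markers ADIPOQ, FABP4 and PLIN1 averaged 2459, 140400 and 21068 normalized reads. PPARG had 819, 560 and 240 there, overlapping the 332 to 488 of the primary cultures. In the limma fits given below, 9 of 13 adipocyte markers were higher in FAT against each primary culture, and 1 was lower against CEF2. Of all rows tested, 33.6% were higher against CEF4, and 31.6% were higher and 25.3% lower against CEF2. FAT also held markers of vessels (summed 8393 to 33321), leukocytes (13647 to 30587.1), red blood cells (1309 to 5185) and skeletal muscle (10036 to 343613).

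The genes are shown by library, grouped by role. The grouping was made by hand once the members were known. Within the matrix were 17 genes (LECT1, HAPLN1, TGM2, FIBIN, ECM2, HTRA3, MXRA5, ARSI, MATN1, TINAGL1, AGRN, CCN3, FBLN7, ISLR, FNDC1, ANOS1 and CHSY3). There were 6 secreted signals and antagonists (FRZB, GAS6, NTN1, PTN, SFRP2 and NOG2) and 4 genes grouped as secreted proteases, inhibitors and carriers (EXFABP, SERPINB2, FAM20A and F10). The last group takes in FAM20A, which is a pseudokinase. Receptors and other membrane proteins numbered 15 (EPHA3, SSPN, RARRES1, CD9, TMEM47, NGFR, CNTN4, TMEM61, SLC6A15, NPR3, NT5E, RIC3, SDC3, PTGFRN and PTCHD1). The nucleus was represented by transcription factors, SOX9 and SIX2 among them, and the cytoplasm by 10 regulators (CSRP2, RRAD, RGCC, BAIAP2L1, PAWR, NHSL1, AATK, NEK4, NOS1AP and CFAP36). Metabolic, lysosomal and iron-handling proteins numbered 8 (GSTT1L, FTL, DPP7, CYP1B1, AKR1D1, CYBRD1, EHHADH and FUCA1), and 3 genes were not assigned a role (DQX1, LOC425137 and B3GAT1L).

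**Figure D1:**
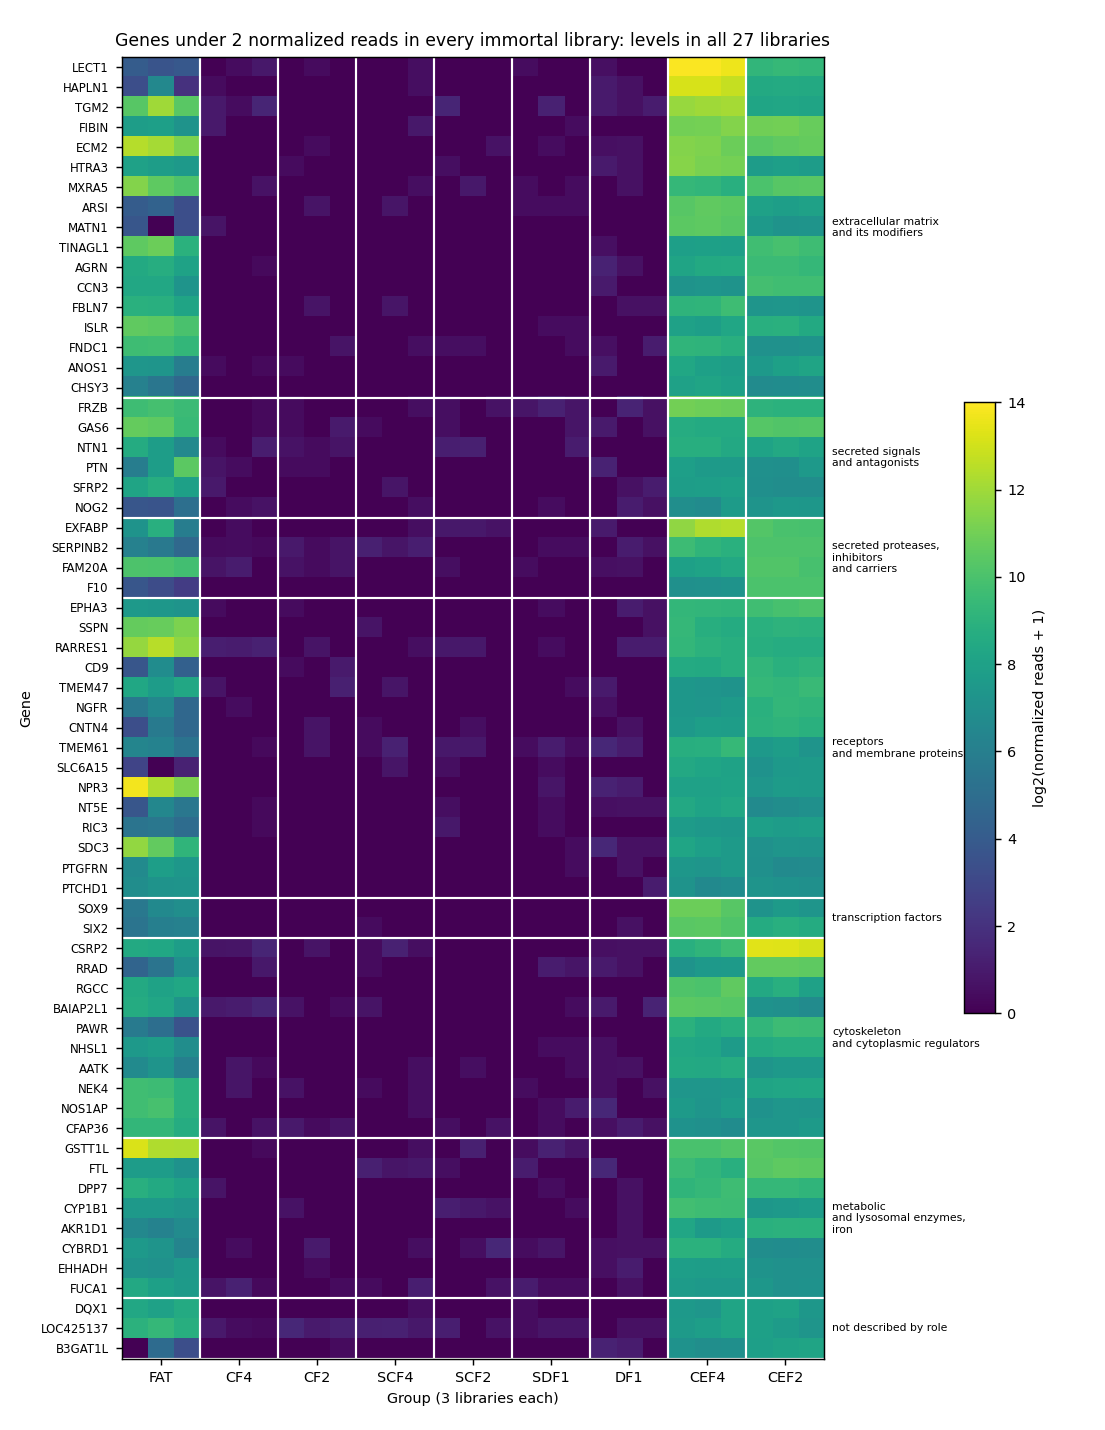
Level of 65 of the 66 genes (rows, grouped by role) in all 27 libraries (columns, 3 per group), as log2 of normalized reads plus 1. The 18 immortal libraries are dark throughout because the genes were chosen to be under 2 there, while the FAT columns run from 0 to 13656 normalized reads.

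The immortal libraries held 549 reads of these genes in all, out of 394.8 M, against 390287 reads in the 3 CEF4 libraries and 308702 in the 3 CEF2 libraries. The rule fixed this contrast, so it is given without a test. RGCC (a cell cycle regulator), PAWR (a promoter of apoptosis), CHSY3 (an enzyme of chondroitin sulfate synthesis), F10 (the clotting factor X precursor) and SOX9 (the master transcription factor of cartilage) had no read in any of the 18 immortal libraries. Another 25 genes had 1 to 5 reads over the 18 libraries, and 6 genes had 20 or more. The most reads were found for LOC425137 with 37, RARRES1, a membrane protein induced by retinoids, with 24, and BAIAP2L1, an adaptor that bends membranes and binds actin, and TGM2, a protein-crosslinking transglutaminase, with 23 each.

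The residual reads were spread over the lines. CF4 and CF2 held 119 and 82 reads of the 66 genes, SCF4 and SCF2 held 65 and 60, and SDF1 and DF1 held 89 and 134. Per M of recovered reads, DF1 had 2.64 and the 6 groups together 1.39, against 5732 in CEF4 and 4047 in CEF2. DF1 was also the group in which the fewest of the 66 genes lacked any read, 15, compared with 26 in SDF1, 31 in CF4, 33 in SCF4, 37 in CF2 and 42 in SCF2. Free RNA or misassigned reads as a source of these few reads was not tested.

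Loss to under 2 was rare among well-expressed genes. Of the 7432 rows at 100 or more in every primary library, 6247 (84.1%) stayed at 100 or more in every immortal library, and 77 (1.04%) were under 2 in all of them, which is 0.544% of all rows. Taken line by line, 2.33% of those rows were under 2 in CF4, 2.65% in CF2, 2.17% in SCF4, 2.48% in SCF2, 2.11% in SDF1 and 1.33% in DF1. SCF was in the same deposited set as the primary cultures, and CF, DF1 and SDF1 were in that of FAT. Low values occurred in both sets, and an effect of set was not tested. Just inside the thresholds lay PTCHD1, NT5E and PTGFRN, with primary minima of 100.1, 102 and 103, and NOS1AP, FTL and TMEM61, each with an immortal maximum of 1.99. Just outside lay APOA1, MBOAT1 and NEFM, with primary minima of 98.9, 97.2 and 95.8, and EYA2, PTGS2 and ADAMTS1, each with an immortal maximum of 2.12.

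Wider lists of related genes give the surroundings; they too were drawn up with results of these data known. Among matrix glycoproteins and matricellular proteins, 30 of 47 measured genes were at 100 or more in every primary library; 11 of these 30 stayed at 100 or more in every immortal library, and 5 were under 2 in all (CCN3, ECM2, FBLN7, FIBIN and FNDC1). Among mesenchymal and developmental transcription factors the counts were 34 of 93, of which 15 stayed and 3 were under 2, with SIX2 and SOX9 among them. Among secreted growth factors and antagonists they were 31 of 87, of which 11 stayed and 4 were under 2 (FRZB, NTN1, PTN and SFRP2). Among regulators of actin and the membrane skeleton 42 of 50 such genes stayed and none was under 2 in all. That list was drawn up without any of the 66 genes, although some of them act on the cytoskeleton, so nothing is read from its lack of such genes. Over all 7432 such rows, 84.1% stayed and 1.04% were under 2.

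Levels in FAT are given here as a description. The rule held the genes under 2 in the immortal lines, and 1 read in FAT was worth 1.52 to 3.16. No lead of FAT over those lines is therefore read from these levels. All 3 FAT libraries were at 100 or more for 39 of the 66 genes (59.1%), as for 54.8% of all rows and for 86.8% of the other rows at 100 or more in the primary cultures. Another 20 genes had their lowest FAT library between 10 and 100, and 7 had it under 10. SLC6A15, a transporter of neutral amino acids, was under 10 in all 3 FAT libraries, with 2, 0 and 1 reads. No gene was under 2 in all 3, but at the FAT depth that level is worth only 0.633 to 1.32 reads. SLC6A15 had 3 reads over the FAT libraries, of 4.61 to 10.4 M reads each, and 3 over the immortal libraries, of 394.8 M together. Its level in any single FAT library therefore rests on very few reads. SLC6A15, MATN1 and B3GAT1L each had a FAT library with no read. Summed over the 66 genes, FAT held 58790.2, 47743 and 33097 normalized reads and the immortal libraries 6.35 to 30.9. The sums were 64346 to 68504 in CEF4 and 40357 to 43277 in CEF2. The order of FAT and CEF2 depends on the column scale, since FAT columns summed to 13.4 to 15.9 M and CEF2 columns to 10.1 to 10.5 M. As a share of its column, FAT held 0.381%, 0.357% and 0.209%, below the 0.399% to 0.413% of CEF2. Per M of recovered reads FAT had 2850, below the 4047 of CEF2 and the 5732 of CEF4.

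Against CF4, the immortal line with the same breed label as FAT and from the same deposited set, the direction was bounded by the choice of genes, which were under 2 in CF4. In the limma fit of FAT against CF4, 63 of the 66 genes had enough signal to be tested, nearly all through their FAT libraries. All 63 were called higher in FAT at an adjusted p under 0.05, against 42.7% of all rows tested, and nothing is read from that count. MATN1, B3GAT1L and SLC6A15 were not tested. NPR3 had no read in CF4, and its mean in FAT was 21401 times a CF4 floor of 3 reads over its 3 libraries. The FAT means of ECM2, SSPN and SDC3 were 12721, 5818 and 5673 times the same floor. These genes were picked as among the highest in FAT, so large ratios followed from the choice. The ratios of NPR3 and SDC3 rest on the first FAT library, without which they were 11309 and 3286.

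Against the primary cultures, the 66 genes divided. Every FAT library was above every primary library for 11 genes, against 29.2% of all rows, and below every primary library for 29 genes, against 22% of all rows and 33.3% of the rows at 100 or more in the primary cultures. The other 26 fell in neither class. In the limma fit of FAT against CEF4, 15 genes were higher (33.6% of all rows tested were) and 35 were lower (24.3% of all rows), with a median log2 change of -1.10 against 0.22 over all rows. In that of FAT against CEF2, 18 were higher (31.6% of all rows) and 29 lower (25.3% of all rows), with a median of -0.67 against 0.12. The fits share the FAT libraries. The choice of genes bounded the primary side at 100 or more, and FAT and the primary cultures came from different deposited sets, so that set and group cannot be told apart. Under quantile normalization the share of all calls that were higher in FAT was 44.9% against CEF4 and 45.7% against CEF2, compared with 58.0% and 55.5% without it; no called gene of the 66 changed direction.

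**Figure D2:**
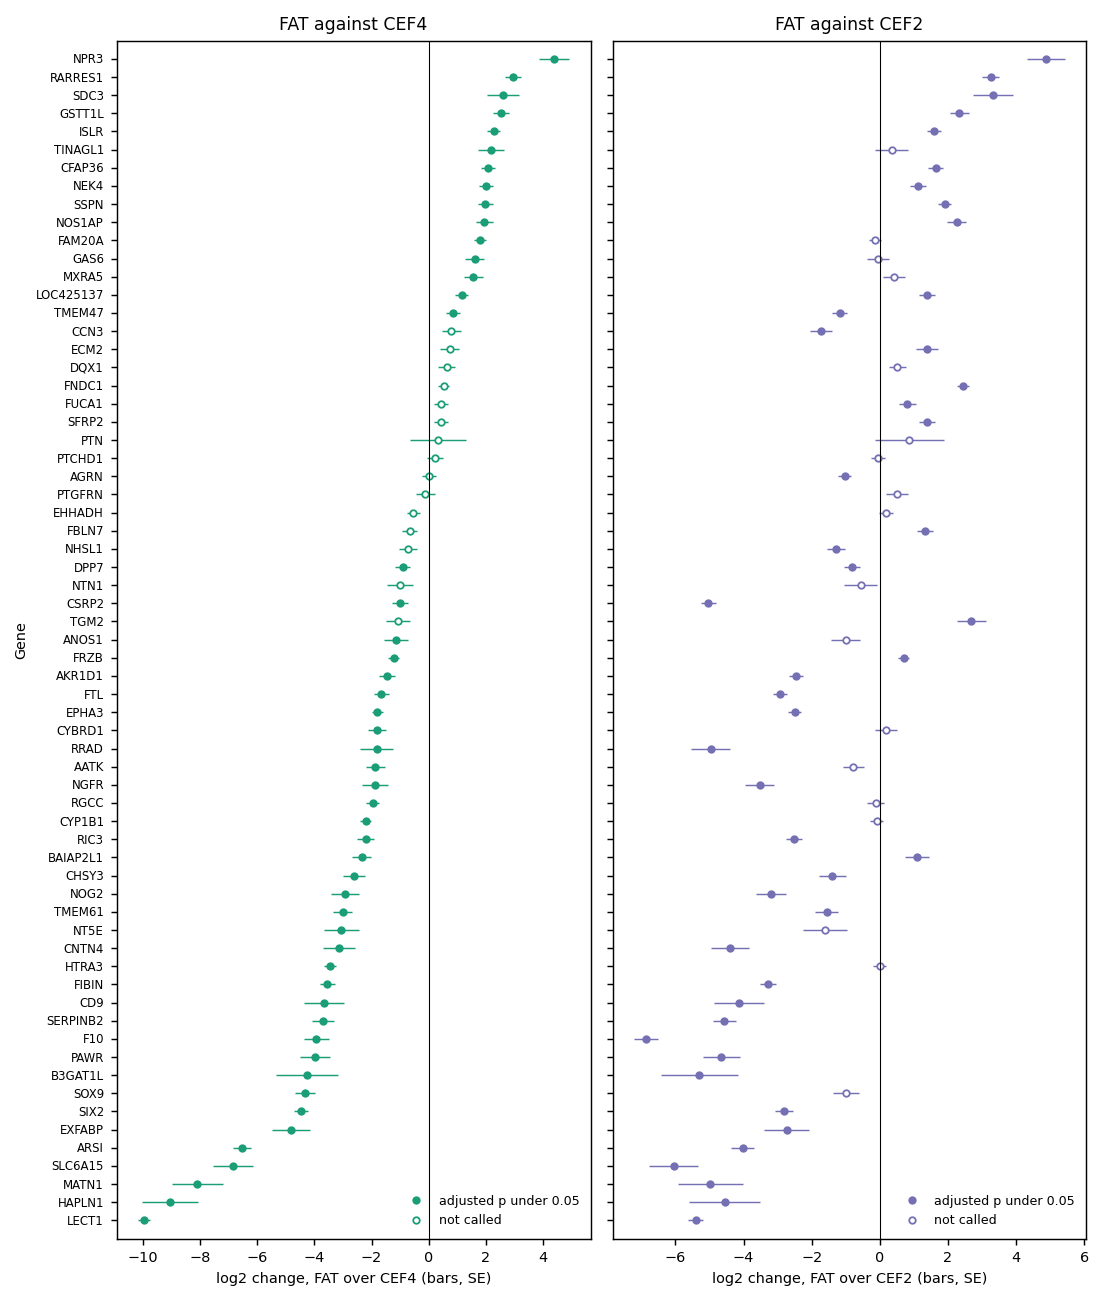
Log2 change of 65 of the 66 genes in FAT over CEF4 (left) and over CEF2 (right), ordered by the change against CEF4, with the SE as bars, filled where the adjusted p was under 0.05. The changes ran from -9.96 (LECT1) to 4.38 (NPR3) against CEF4 and from -6.86 (F10) to 4.87 (NPR3) against CEF2.

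A hormone receptor and a relative of detoxifying enzymes were higher in FAT than in either primary culture. NPR3, the clearance receptor for natriuretic peptides, had 13656, 4877 and 2550.2 normalized reads in FAT, against 260.1, 253 and 281 in CEF4 and 164, 207 and 197 in CEF2. Its lowest FAT library was above every primary library, and it was higher by a log2 change of 4.38 ± 0.53 against CEF4 (SE, limma adjusted p = 0.00026) and 4.87 ± 0.56 against CEF2 (adjusted p = 0.00043). GSTT1L, named as a relative of theta-class glutathione transferases, had 9321, 5234 and 4881 in FAT, against 1025, 1014 and 1174 in CEF4 and 1344, 1203 and 1155 in CEF2. It was 2.54 ± 0.28 higher against CEF4 (SE, log2, adjusted p = 0.00016) and 2.33 ± 0.27 higher against CEF2 (adjusted p = 0.00047). Its neighbour in the gene order is its relative GSTT1, which averaged 694 normalized reads in the primary cultures and 124 in the immortal lines. Sharing of reads between GSTT1 and GSTT1L was not tested.

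RARRES1 had 3462, 5881 and 3175 normalized reads in FAT, against 608, 506 and 443 in CEF4 and 446, 409 and 405 in CEF2, with no overlap between FAT and either culture. Its log2 change was 2.96 ± 0.28 against CEF4 (SE, limma adjusted p = 7.6e-05) and 3.25 ± 0.25 against CEF2 (adjusted p = 9.3e-05). SSPN, sarcospan, a membrane partner of the dystrophin complex, had 1650.5, 1701 and 2379.9 in FAT, against 638, 436 and 388 in CEF4 and 466, 529 and 509.5 in CEF2. It was higher by 1.98 ± 0.26 (adjusted p = 0.00037) and 1.91 ± 0.19 (adjusted p = 0.00025) against CEF4 and CEF2, again without overlap. SDC3, a heparan sulfate proteoglycan of the cell surface, had 3431, 1582 and 576 in FAT, against 299, 241 and 194 in CEF4 and 132, 158 and 151 in CEF2. Its FAT libraries spanned 5.95-fold and still lay above the primary ones, with changes of 2.60 ± 0.57 (adjusted p = 0.0056) and 3.31 ± 0.58 (adjusted p = 0.0028).

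ECM2, a leucine-rich matrix protein, had 5659.6, 4485 and 2388 normalized reads in FAT, against 2751, 2542 and 1885 in CEF4 and 1352, 1546 and 1679.9 in CEF2. The FAT and CEF4 ranges overlapped in their levels, with a log2 difference of 0.73 and a 95% interval of -0.05 to 1.51 (limma adjusted p = 0.095, called at 1.09 ± 0.20 and 0.0012 without the third FAT library), while all FAT libraries were above CEF2 (1.37 ± 0.32 SE, adjusted p = 0.0099). TGM2 had 1309, 4044 and 1352 in FAT, against 3623, 4106 and 4383 in CEF4 and 302, 316 and 283 in CEF2. FAT thus lay above CEF2 (2.68 ± 0.43, adjusted p = 0.0018) and overlapped CEF4 in its second library (-1.06 ± 0.42, adjusted p = 0.06); without that library TGM2 was called lower against CEF4 (-1.60, adjusted p = 0.0014). Elsewhere in the matrix group ISLR, an immunoglobulin and leucine-rich repeat protein of stromal cells, was higher in FAT by 2.27 ± 0.23 against CEF4 (adjusted p = 0.00011) and 1.59 ± 0.21 against CEF2 (adjusted p = 0.00083). Of the 17 matrix genes, 3 were higher and 8 lower against CEF4, and 5 higher and 8 lower against CEF2. The shares over all rows were 33.6% and 24.3% against CEF4, and 31.6% and 25.3% against CEF2.

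Against CEF4, the 3 most negative changes in FAT were those of LECT1, HAPLN1 and MATN1, all known from the matrix of cartilage. LECT1, chondromodulin, a glycoprotein of cartilage that keeps vessels out, had 8 reads over the immortal libraries. It had 15.8, 11.6 and 13.7 normalized reads in FAT, against 15750.4, 15334 and 12752 in CEF4 and 588, 655 and 612 in CEF2. These FAT values were only just above the level of up to 4.56 to 9.49 that a count of 0 allows there, and the log2 changes were -9.96 ± 0.20 (SE, limma adjusted p = 2.1e-07) against CEF4 and -5.41 ± 0.22 (adjusted p = 1.4e-05) against CEF2. HAPLN1, the link protein that ties aggrecan to hyaluronan, had 9.49, 92.9 and 3.04 in FAT, against 9215, 9043 and 6983 in CEF4 and 359, 381 and 366 in CEF2. MATN1, a matrilin of cartilage, had 12.6, 0 and 9.12 in FAT, against 1415, 1471 and 1340.3 in CEF4 and 189.7, 145 and 152 in CEF2.

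Both genes lay below every primary library, MATN1 by log2 changes of -8.09 ± 0.89 (SE, limma adjusted p = 0.00018) against CEF4 and -4.97 ± 0.96 (adjusted p = 0.0041) against CEF2. ARSI, a member of the sulfatase family, had 15.8, 20.3 and 9.12 normalized reads in FAT, against 1333, 1536 and 1420.3 in CEF4 and 259, 233 and 255 in CEF2. FIBIN, a secreted protein named for fin bud initiation in zebrafish, had 224, 238 and 143 in FAT, against 2039.7, 2196 and 2724 in CEF4 and 1964, 2102 and 1710.2 in CEF2. Its changes were (-3.54 ± 0.25, adjusted p = 2.1e-05, and -3.28 ± 0.23, adjusted p = 6.4e-05). HTRA3, a secreted serine protease, had 259, 221 and 184 in FAT, against 2859, 2297 and 2186 in CEF4 and 214, 239.6 and 209 in CEF2. It was lower against CEF4 (-3.46 ± 0.21, adjusted p = 1.2e-05) and differed from CEF2 by -0.01, with a 95% interval of -0.47 to 0.45. CCN3, a matricellular protein of the CCN family, had 338, 334 and 152 in FAT, against 146, 155 and 146 in CEF4 and 909, 843 and 829 in CEF2, and was called lower only in the fit against CEF2 (-1.73 ± 0.32, adjusted p = 0.0034). CEF4 itself was lower than CEF2 for CCN3 (-2.52 ± 0.10, adjusted p = 6.2e-08). Without the third FAT library, CCN3 was called higher against CEF4 (1.17 ± 0.19, adjusted p = 0.00067).

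**Figure D3:**
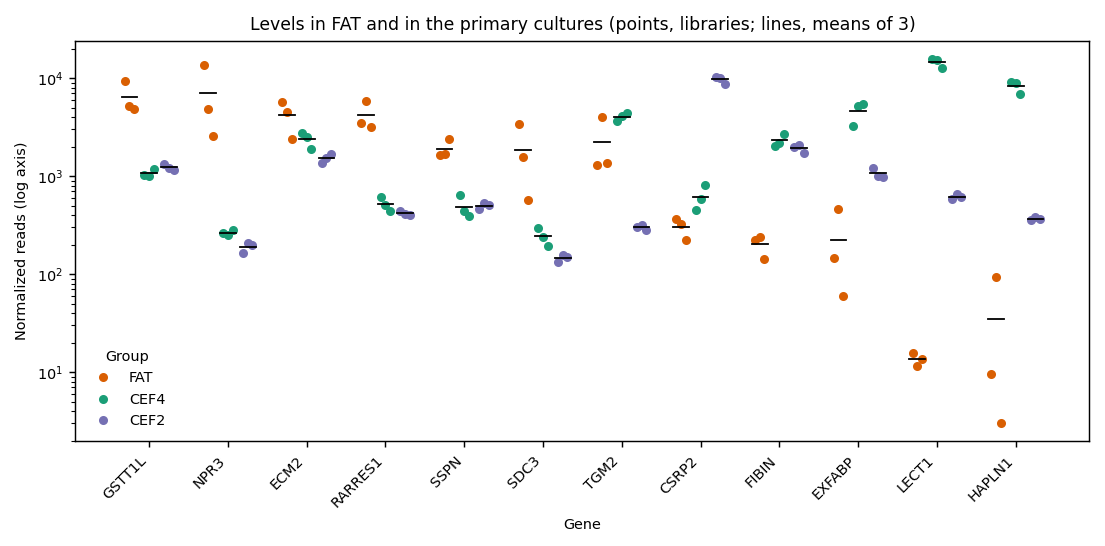
Normalized reads (log axis) of 12 of the genes in the 3 libraries of FAT (left in each trio), CEF4 and CEF2; points are libraries and lines are means. NPR3, GSTT1L, RARRES1, SSPN and SDC3 lie above all primary libraries in FAT, and LECT1, HAPLN1, EXFABP, FIBIN and CSRP2 lie below them.

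Among secreted signals, FRZB and SFRP2 bind Wnt proteins outside the cell, NOG2 is a noggin-type binder of BMPs, NTN1 guides axons, GAS6 is the ligand of TAM receptor kinases and PTN is a heparin-binding growth factor. FRZB had 17 reads over the immortal libraries. It had 790.4, 935 and 733 normalized reads in FAT, against 2037, 1904 and 1795 in CEF4 and 528, 487 and 489.8 in CEF2. FAT thus lay between the cultures without touching either, lower than CEF4 by a log2 change of -1.23 ± 0.19 (SE, limma adjusted p = 0.00085) and higher than CEF2 by 0.70 ± 0.16 (adjusted p = 0.0082). SFRP2 was higher against CEF2 (1.38 ± 0.24, adjusted p = 0.0025), and against CEF4 its interval was -0.15 to 0.99 around 0.42, called at 0.59 without the third FAT library (adjusted p = 0.037). NOG2 was lower against both, by -2.93 ± 0.50 (adjusted p = 0.0015) and -3.20 ± 0.43 (adjusted p = 0.00086). In all, 1 of these 6 genes was higher and 2 lower against CEF4, and 2 higher and 1 lower against CEF2. All rows tested gave 33.6% higher and 24.3% lower against CEF4, and 31.6% and 25.3% against CEF2.

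Of the 4 genes grouped as secreted proteases, inhibitors and carriers, 3 were lower in FAT against each culture, and 1 was higher against CEF4. Of all rows tested, 33.6% were higher and 24.3% lower against CEF4, and 31.6% and 25.3% against CEF2. EXFABP, a lipocalin of the chicken that binds fatty acids and siderophores, had 145, 462 and 59.3 normalized reads in FAT, against 3221, 5176 and 5482 in CEF4 and 1201, 1015 and 980.4 in CEF2. It was lower by log2 changes of -4.82 ± 0.66 (SE, limma adjusted p = 0.00057) and -2.73 ± 0.66 (adjusted p = 0.011). F10 had 12.6, 8.71 and 4.56 in FAT, against 131, 135 and 143 in CEF4 and 1046, 1036 and 1068 in CEF2, with changes of -3.92 ± 0.45 (adjusted p = 2.0e-04) and -6.86 ± 0.35 (adjusted p = 2.4e-05). Those FAT values were 4, 3 and 3 reads, at or just above the level that a count of 0 allows there. SERPINB2, an inhibitor of plasminogen activators, was lower by -3.70 ± 0.39 and -4.56 ± 0.35 (adjusted p = 0.00013 and 8.4e-05). FAM20A, a secretory-pathway pseudokinase grouped with them by hand, was called lower against neither culture. It had 1084, 1048 and 867 in FAT, against 244, 278 and 346 in CEF4 and 1158, 1187 and 977 in CEF2.

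Of the 15 receptors and membrane proteins, 5 were higher and 8 lower against CEF4, and 4 higher and 8 lower against CEF2. The shares over all rows were 33.6% and 24.3% against CEF4, and 31.6% and 25.3% against CEF2. EPHA3, an ephrin receptor kinase, had 193, 171 and 149 normalized reads in FAT, against 614, 593 and 572 in CEF4 and 829, 978 and 1107 in CEF2. It was lower without overlap, by log2 changes of -1.79 ± 0.19 (SE, limma adjusted p = 0.00015) and -2.50 ± 0.18 (adjusted p = 7.6e-05). NGFR, the low-affinity neurotrophin receptor, and CNTN4, a contactin of axons, were also lower against both cultures. CD9 is a tetraspanin and PTGFRN an immunoglobulin protein known to bind it. CD9 had 12.6, 110.3 and 18.2 in FAT, against 371, 368 and 432 in CEF4 and 604, 472 and 543 in CEF2, and was lower (-3.66 ± 0.71, adjusted p = 0.0028, and -4.12 ± 0.74, adjusted p = 0.003). PTGFRN differed by -0.12 and 0.50 and passed neither test; without the first FAT library it was called higher against CEF2 (0.82, adjusted p = 0.029). NT5E, the ectonucleotidase CD73 used as a marker of stromal cells in mammals, was lower against CEF4 (-3.06 ± 0.61, adjusted p = 0.0033), and against CEF2 its change was -1.61 ± 0.64 (adjusted p = 0.068, and 0.021 without the second FAT library). TMEM47, a small membrane protein of cell junctions, was higher against CEF4 (0.86 ± 0.25, adjusted p = 0.019, but 0.059 to 0.07 without the first FAT library or either the second or the third CEF4 library) and lower against CEF2 (-1.18 ± 0.22, adjusted p = 0.0039).

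Transcription factors among the genes were lower in FAT or passed neither test. SOX9 had 47.4, 98.7 and 119 normalized reads in FAT, against 1882, 1877 and 1304 in CEF4 and 143, 197 and 159 in CEF2. It was lower against CEF4 (log2 change -4.32 ± 0.35 SE, limma adjusted p = 4.1e-05), and against CEF2 it was -0.99 ± 0.37 (adjusted p = 0.054), and -1.25 ± 0.33 without the third FAT library (adjusted p = 0.013). SIX2, a homeobox factor of head and kidney mesenchyme, had 41.1, 63.9 and 71.5 in FAT, against 1342, 1416 and 1129.6 in CEF4 and 392, 460.1 and 384 in CEF2, and was lower against both (-4.47 ± 0.26, adjusted p = 9.3e-06, and -2.82 ± 0.26, adjusted p = 0.00017).

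The third FAT library decided the PTN values. PTN had 60.1, 218 and 1405 normalized reads in FAT, against 242, 194 and 198 in CEF4 and 132, 125 and 184 in CEF2. Its log2 differences of 0.33 and 0.86 passed neither test, and without the third FAT library they were -0.87 and -0.34, also not called. Beside these values, the summed skeletal muscle list of 12 genes was 10036, 27693 and 343613 in the same 3 FAT libraries and the summed adipocyte list of 13 genes was 318256, 170735 and 84827. NPR3 and SDC3 were likewise highest in the first FAT library and lowest in the third. The part of either cell type in these values was not tested. Over the 63 genes with a read in all FAT libraries, the highest FAT library exceeded the lowest by a median of 2.08-fold, against 1.83-fold over all rows with such reads. The third library was the lowest for 44 of the 66 genes, a larger share than the 51.3% of all rows.

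Of the 10 cytoplasmic regulators, 3 were higher and 6 lower against CEF4, and 4 were higher and 4 lower against CEF2. All rows tested gave 33.6% higher and 24.3% lower against CEF4, and 31.6% and 25.3% against CEF2. CSRP2, a LIM-domain protein of smooth muscle, had 367, 322 and 221 normalized reads in FAT, against 454, 578 and 809 in CEF4 and 10398, 10158 and 8695 in CEF2. It was lower by log2 changes of -1.01 ± 0.29 (SE, limma adjusted p = 0.017) and -5.03 ± 0.23 (adjusted p = 1.9e-05), and without the third CEF4 library the call against CEF4 ended (-0.79 ± 0.30, adjusted p = 0.067). RRAD, a small GTPase that restrains calcium channels, had 22.1, 40.6 and 129 in FAT, against 147, 185 and 199 in CEF4 and 1619.7, 1602 and 1472 in CEF2. Its call against CEF4 (-1.82 ± 0.58, adjusted p = 0.028) ended without any 1 library other than the third of FAT, with an adjusted p of up to 0.084, while that against CEF2 was -4.97 ± 0.58 (adjusted p = 0.00046). BAIAP2L1 had 392, 314 and 154 in FAT, against 1435, 1343 and 1278 in CEF4 and 140.1, 130.1 and 108 in CEF2. FAT was below CEF4 (-2.34 ± 0.33, adjusted p = 0.00062) and above CEF2 (1.08 ± 0.36, adjusted p = 0.037) for BAIAP2L1, but the call against CEF2 held only when all libraries or all but the third FAT library were used (adjusted p of up to 0.11 without any other). PAWR was lower against both (-3.97 ± 0.53, adjusted p = 0.00045, and -4.65 ± 0.54, adjusted p = 0.00045). NEK4, a kinase of the NIMA family, NOS1AP, an adaptor of neuronal nitric oxide synthase, and CFAP36, a protein of cilia, were higher in FAT, each by 1.12 to 2.25 on the log2 scale.

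Of the 8 metabolic, lysosomal and iron genes, GSTT1L was the only 1 called higher against CEF4, and 5 were lower (FTL, DPP7, CYP1B1, AKR1D1 and CYBRD1). Of all rows tested against CEF4, 33.6% were higher and 24.3% lower. Against CEF2, 2 of the 8 were higher and 3 lower, beside 31.6% and 25.3% of all rows. The DPP7 call against CEF4 ended without the third CEF4 library (adjusted p = 0.067). Its call against CEF2 ended without any 1 CEF2 library (adjusted p of 0.051 to 0.073). FTL, named for the ferritin light chain, had 209, 215 and 139.9 normalized reads in FAT, against 739, 594 and 454 in CEF4 and 1339, 1474 and 1445 in CEF2. CYP1B1, a monooxygenase of steroids and foreign compounds, was lower against CEF4 (log2 change -2.20 ± 0.19 SE, limma adjusted p = 5.0e-05) and differed from CEF2 by -0.09. EHHADH, of peroxisomal fatty acid oxidation, passed neither test (-0.54 and 0.18), and was called against CEF4 without the third FAT library (-0.69 ± 0.20, adjusted p = 0.013). FUCA1, a lysosomal fucosidase, was higher against CEF2 (0.81 ± 0.25, adjusted p = 0.029), but not without any 1 library other than the third of FAT (adjusted p of up to 0.1). LOC425137 had 509, 639 and 435 in FAT, against 198, 226 and 287 in CEF4 and 244, 204 and 158 in CEF2, and was higher against both (1.15 ± 0.23, adjusted p = 0.0037, and 1.39 ± 0.23, adjusted p = 0.0023).

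For the 4 wider lists, FAT against CEF4 gave 14 higher and 20 lower of 47 matrix genes, 32 and 35 of 84 transcription factors, 34 and 18 of 84 growth factors and antagonists, and 28 and 20 of 69 actin regulators. Against CEF2 the counts were 14 and 21 of 46, 28 and 31 of 88, 29 and 28 of 82, and 20 and 26 of 69. Of all rows tested, 33.6% were higher and 24.3% lower against CEF4, and 31.6% and 25.3% against CEF2. The medians of these lists against CEF4 were -0.13, -0.28, 0.57 and 0.24 on the log2 scale, beside 0.22 over all rows, and against CEF2 they were -0.21, -0.80, 0.04 and -0.10, beside 0.12.

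The primary cultures, which the rule treated alike, differed from each other for most of the 66 genes. In the limma fit of CEF4 against CEF2, 30 were higher in CEF4, against 18.2% of all rows tested, 23 were lower, against 22.6%, and 13 passed neither way. The median log2 change was 0.27, against -0.02 over all rows. Both sides were bounded at 100 or more by the choice of genes, but the difference between them was not used. Each culture had a breed label of its own, so the effects of breed and of culture cannot be told apart. Under quantile normalization the share of all calls that were higher in CEF4 was 51.7%, compared with 44.6%; no called gene of the 66 changed direction.

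Of the 17 genes in the hand-made matrix group, 10 were higher and 5 lower in CEF4, against 18.2% and 22.6% of all rows tested. The wider matrix list showed no such lean, with 17 higher and 18 lower of 47. On the log2 scale LECT1 was higher by 4.55 ± 0.10 (SE, limma adjusted p = 1.9e-09), HAPLN1 by 4.50 ± 0.11 (adjusted p = 3.2e-09), TGM2 by 3.74 ± 0.10 (adjusted p = 4.1e-09) and HTRA3 by 3.46 ± 0.12 (adjusted p = 2.5e-08). For each of them the lowest CEF4 library was above the highest CEF2 library. SOX9 was higher by 3.33 ± 0.17 (adjusted p = 2.8e-07), MATN1 by 3.12 ± 0.12 (adjusted p = 5.4e-08) and BAIAP2L1 by 3.42 ± 0.12 (adjusted p = 2.8e-08). The cartilage markers moved with them: 9 of 9 measured were higher in CEF4, with sums of 257190 to 380228 in CEF4 and 7357 to 8182 in CEF2, and 11.9 to 44.3 in the immortal lines. HAPLN1, MATN1 and SOX9 belong to that list, and the part of cartilage cells in these differences was not tested.

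Other genes were lower in CEF4. CSRP2 was lower by a log2 change of -4.02 ± 0.18 (SE, limma adjusted p = 1.2e-07), RRAD by -3.14 ± 0.12 (adjusted p = 6.1e-08), F10 by -2.94 ± 0.10 (adjusted p = 2.0e-08) and CCN3 by -2.52 ± 0.10 (adjusted p = 6.2e-08), each without overlap between libraries. TMEM47 (-2.04 ± 0.12), FAM20A (-1.94 ± 0.14), TINAGL1, a protein of basement membranes (-1.84 ± 0.10), GAS6 (-1.66 ± 0.09) and NGFR (-1.64 ± 0.13) followed, all with an adjusted p of 5.4e-06 or less. Skeletal muscle markers were lower in CEF4 for 12 of 12 measured, with sums of 496 to 580.3 in CEF4 and 4936 to 5570.2 in CEF2. Smooth muscle markers were lower for 7 of 8, with sums of 34963 to 35131 in CEF4 and 146929 to 164462 in CEF2. Of all rows tested, 22.6% were lower in CEF4. The part of muscle cells in these differences was not tested.

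**Figure D4:**
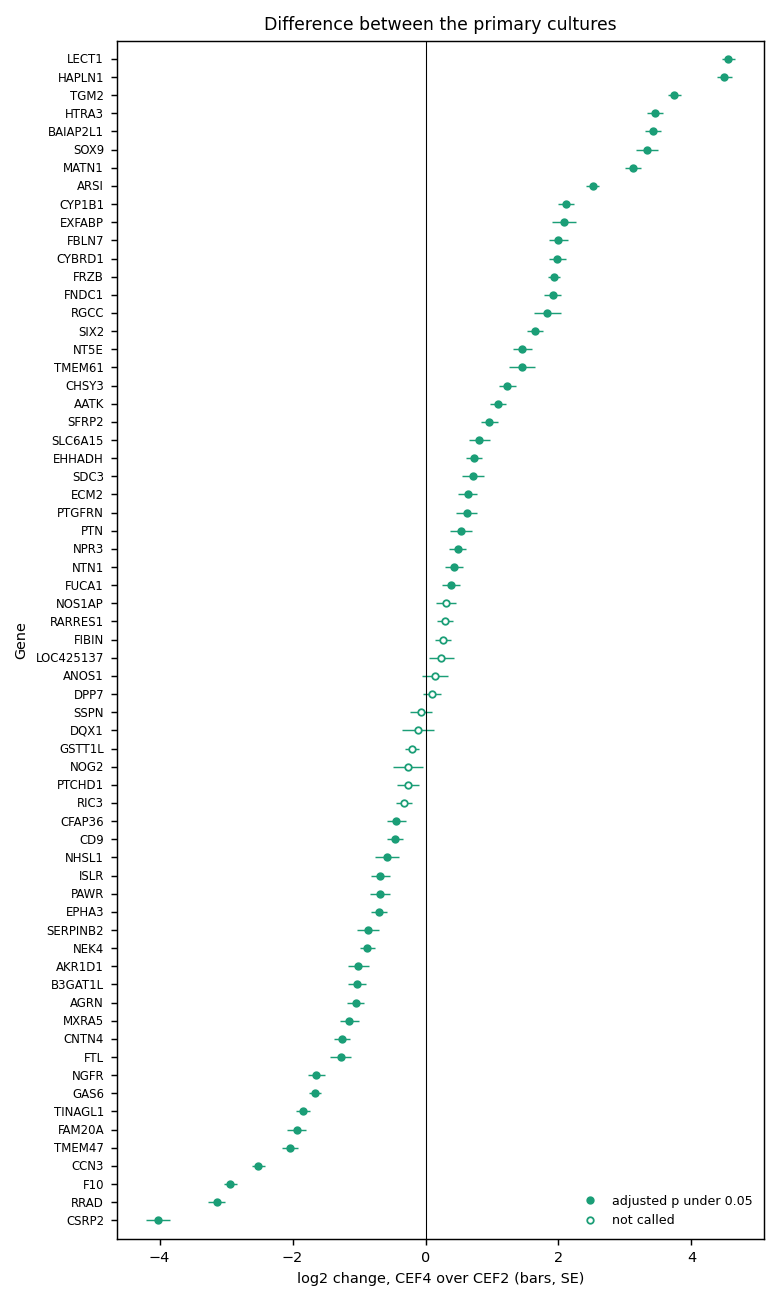
Log2 change of 65 of the 66 genes in CEF4 over CEF2, with the SE as bars, filled where the adjusted p was under 0.05. LECT1 stands at 4.55 and CSRP2 at -4.02, with 30 genes higher and 23 lower.

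Several genes were near the same level in both cultures. FIBIN averaged 2320 ± 359 normalized reads in CEF4 and 1925 ± 199 in CEF2 (SD, n = 3 each), with a 95% interval of the log2 difference of -0.01 to 0.54; without the first CEF4 library it was called (0.35, adjusted p = 0.038). GSTT1L averaged 1071 ± 89.1 in CEF4 and 1234 ± 98.6 in CEF2, with an interval of -0.43 to 0.02, and was called lower without the third CEF4 library (-0.27, adjusted p = 0.043). SSPN averaged 488 ± 133 in CEF4 and 502 ± 32.2 in CEF2, with an interval of -0.45 to 0.30. By role, 3 of the cytoplasmic regulators were higher and 6 lower in CEF4, 6 receptors and membrane proteins were higher and 5 lower, and of the transcription factors SOX9 and SIX2 were higher. Of the wider lists, CEF4 against CEF2 gave 17 higher and 18 lower of 47 matrix genes, 23 and 42 of 88 transcription factors, 16 and 42 of 80 growth factors and antagonists, and 4 and 47 of 68 actin regulators. Beside these counts by role and by list, 18.2% of all rows tested were higher and 22.6% lower. The list medians were 0.06, -0.43, -0.73 and -0.66 on the log2 scale, beside -0.02 over all rows.

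The genes were also set beside their neighbours in the RefSeq gene order of the assembly bGalGal1.mat.broiler.GRCg7b, used for order only since the submitters' processing notes name another build. None of the 100 measured neighbours of the 66 genes was itself among the 66, as against 39 of the 8844 neighbours of the other rows at 100 or more in the primary cultures. Under 2 in every immortal library were 22 of these neighbours (22%), against 10.5% of those 8844. Of the 48 neighbours that were at 100 or more in every primary library, none was under 2 in every immortal library, beside 45 of 5216 around the other rows. With a share that small around the other rows, 48 genes are too few for a difference to show. The median of the neighbours' averages was 123 normalized reads in the immortal lines and 197 in the primary cultures, against 221 and 225 for those 8844. Single neighbours went both ways. BRI3, next to BAIAP2L1, averaged 839 normalized reads in the immortal lines and 279 in the primary cultures, and NCKAP1, next to FRZB, averaged 6882 and 2796. NPTX2, on the other side of BAIAP2L1, averaged 0.605 in the immortal lines and 617 in the primary cultures. BGN, next to ECM2, averaged 2.12 and 790, and ARSH, next to MXRA5, averaged 0.134 and 247.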

How the data were processed

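Total RNA of 27 chicken libraries in 9 groups of 3 was analysed from a deposited table with 1 row per gene symbol. Its values are a signal that the authors normalized: each column is whole reads divided by 1 factor per library (100% of values whole within 0.01 in every library, columns summing to 8.03 to 15.9 M), here called normalized reads, although the table is named for TPM. The sources used here do not say how the factors were set; Bowtie2, RSEM, DESeq2 and galGal6 are named, without versions, in the submitters' processing notes. Other deposited tables were not used. In 17 rows the symbol had become a date.

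Members were rows at 100 or more in all 6 CEF libraries and under 2 in all 18 immortal libraries, with some symbols left out. The members, the role groups and all gene lists were chosen with earlier results of these data known. All 66 symbols matched RefSeq; all 66 genes enter the counts, but 1 of them is not reported here by name or in the plots. Limma 3.58.1 (trend, robust; R 4.3.3) was fitted to log2(normalized reads + 1) on the 2 groups compared, for rows at 1 or more in at least 3 libraries, with Benjamini-Hochberg adjustment over all rows tested and calls at an adjusted p under 0.05. Fold changes on that scale understate low genes. Intervals and floors (3 reads) cover counting error or library spread only. The test had been planned for TPM and was kept. edgeR 4.0.16 on the recovered reads (quasi-likelihood, TMM), added after the data were seen, called 6981 of 11675 rows in FAT against CEF4, 7313 of 11958 in FAT against CEF2, 8149 of 11539 in FAT against CF4 and 4940 of 11632 in CEF4 against CEF2. Values in every library were given for the members highest in CEF (6) and in FAT (6), those most changed between CEF4 and CEF2 (4 each way), the highest of each role group and the 3 with the most immortal reads; ARSI, CD9, FAM20A, FTL, MATN1, PTN and SIX2 were added after their values were seen, as were the neighbours named. No 2 libraries of a group agreed within sampling noise. The fits were tested on simulated data.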

Additional observations from a re-analysis of the deposited data

How the results depend on the processing

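The number of genes that met the rule was 104 with thresholds of 50 and 2, 30 with 200 and 2, 34 with 100 and 1, and 96 with 100 and 4. On columns rescaled to equal sums it was 52. Of the original 66 genes, 28 and not 39 were at 100 or more in all FAT libraries on those columns. The share of all rows on those columns is not given here. Leaving out any FAT library in FAT against CF4 left 7 genes called higher (7 to 7), because most have no value of 1 or more in CF4 and the filter asks for 3 libraries; with a filter of 2 libraries it was 63 to 65. All other counts of calls and of members called stayed within 1.5 times under all alternatives. The median over all rows moved under quantile normalization to -0.15 for FAT against CEF4, -0.13 for FAT against CEF2, -0.22 for FAT against CF4 (where 43.0% and not 62.3% of calls were higher) and 0.05 for CEF4 against CEF2. Without the third FAT library the further calls included ECM2, CCN3, FNDC1, EHHADH, FUCA1 and SFRP2 against CEF4, and TINAGL1, CYBRD1, GAS6 and SOX9 against CEF2. Calls that ended without 1 library were those of RRAD, ANOS1, TMEM47, CSRP2 and DPP7 (FAT against CEF4), BAIAP2L1, FUCA1, CHSY3 and DPP7 (FAT against CEF2), HAPLN1 (FAT against CF4), and CFAP36, FUCA1, PTN, NTN1, NHSL1, CD9 and NPR3 (CEF4 against CEF2). A fit on all 9 groups ended 14 calls in CEF4 against CEF2, those of EPHA3 and ECM2 among them; the cause was not tested. No member called with all libraries changed direction without 1 library, with edgeR, quantile normalization, all 9 groups, the block or a pseudocount of 0.1, but uncalled ones did: without the third FAT library GAS6 against CEF2 was 0.34 and not -0.05, and PTN turned negative against both cultures. Replicate numbers were not used to pair the libraries in the main fits. Residual correlations of equal numbers were -0.171 to 0.0557, and each library correlated best with its own number in FAT against CEF4 and FAT against CF4 only. With 3 libraries per group, such correlations cannot decide whether the numbers pair them. The replicate block gave 8402 calls in FAT against CF4, added 3 member calls against CEF4 and 2 against CEF2, and ended those of CFAP36, FUCA1 and PTN in CEF4 against CEF2. FAT depth limits genes near 4.56 to 9.49 normalized reads.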
